A study of Mus musculus with 18 samples.

Results

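The endoplasmic reticulum (ER) is where secreted and membrane proteins are threaded through a channel, folded, and, if folding fails, sent back out for destruction. A set of 35 genes that carry out this work was followed here in mouse marrow-derived mesenchymal stem cells (MSC), adherent marrow progenitors that secrete large amounts of collagen. The set was chosen by gene symbol, as the ATF6 and XBP1 side of the unfolded protein response without the genes driven by ATF4, and all 35 were found among the 54347 genes of the deposited table. It holds 11 chaperones and co-chaperones, 4 disulfide isomerases, 4 stress sensors or their transducers, 10 genes of ER-associated degradation (ERAD) and 6 genes of protein translocation.

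RNA-seq had been performed on 6 groups of 3 libraries from a primary MSC line made by pooling marrow of several male C57BL/6J mice, so that replicates were separate preparations of one line and p-values measure the spread between preparations. In the first experiment the cells were not transfected and were left untreated (control), or received CK666, which blocks the Arp2/3 complex that branches actin filaments, or cytochalasin D (CytoD), which caps actin filaments. The second experiment used transfected cells throughout: siControl cells carried a non-targeting siRNA, siArp4 cells one against Arp4, and siArp4+CK666 cells the latter before receiving CK666. Arp4, the product of Actl6a, is an actin-related protein of the nucleus. No siControl group given CK666 is among the libraries. The labels name no experiment or batch, and first and second experiment here mean the untransfected and the transfected libraries.

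The unfolded protein response is run by 3 sensors in the ER membrane, encoded by Atf6, Ern1 (IRE1) and Eif2ak3 (PERK), which are held inactive by the chaperone BiP, the product of Hspa5. When unfolded proteins draw BiP away, ATF6 is cut to release a transcription factor, IRE1 splices the Xbp1 message so that it encodes one, and PERK slows translation and favours that of ATF4. ATF6 and XBP1 are known to raise chaperones, ERAD genes and translocation genes through short promoter elements, while ATF4 drives amino acid supply genes and Ddit3 (CHOP). Gene-level counts do not distinguish spliced from unspliced Xbp1.

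Libraries held 18075610 to 24733212 estimated counts, and 12563 to 13234 genes reached a count of 10. The knockdown target Actl6a had 720.1, 1127 and 840.6 normalized counts in the siControl libraries. It had 48.9, 57.2 and 19.0 after siArp4 and 9.52, 22.9 and 17.9 when CK666 was added, with no overlap with siControl. Of 11 MSC markers, 8 or 9 exceeded 1 CPM, counts scaled to the total of the library, in each group and Thy1 was at 0 in all of them. Their summed level was 9301 to 9952 CPM in control and 9389 to 9934 in CytoD, but 4886 to 5957 in CK666, 3862 to 9044 in siControl, 10740 to 12310 in siArp4 and 5116 to 6512 in siArp4+CK666. A list of 9 plasma and B cell markers, which would mark professional secretory cells, summed to 296 to 513 CPM, nearly all of it Sdc1 (295 to 512 CPM), which other cell types also express. Irf4 reached 3.87 CPM, and Mzb1, Cd79b and Ighm were at 0 in every group. Sdc1 and Irf4, the 2 tested, were lower in CK666 than in control, and their part in the results was not tested. A list of 9 hematopoietic markers summed to at most 19.6 CPM. In bulk RNA, fewer cells of a type and less RNA per cell cannot be told apart.

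Some libraries stood apart from others of their group by gene length. Over 10326 genes, the deviation of CK666 replicate 1 from its group mean fell with exon length (Spearman rho -0.61 over all genes and -0.73 over 34 members), and that of CK666 replicate 2 rose with it (0.58 and 0.72). In siControl, replicate 1 favoured long genes (rho 0.55) and replicate 2 short ones (-0.47), and siArp4+CK666 replicates 1 and 3 deviated by 0.55 and -0.53. The rho values describe gene sets that share a library. Calls that were gained or lost when this trend was removed are given with each comparison. The mitochondrial share of counts was 1.43 to 1.82% in control, 1.36 to 1.88% in CK666 and 1.78 to 1.89% in CytoD. It was 1.30 to 2.65% in siControl, 2.67 to 3.26% in siArp4 and 2.86 to 3.36% in siArp4+CK666, with siControl replicate 2 the lowest of its group.

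The elements through which ATF6 and XBP1 act were looked for in the promoters, taken as 250 bases before to 50 bases after each RefSeq start (GRCm38.p6). A window was available for 29 members. The ER stress response element (ERSE) was searched on both strands as CCAAT, any 9 bases, CCACG. It was present in 9 of the 29 members (31.0%), against 37 of 27025 genes (0.137%): Hspa5, Hsp90b1, Calr, Canx, Pdia6, Dnajc3, Creld2, Syvn1 and Derl3. ERSE-II, searched as ATTGG, any base, CCACG, was present in Herpud1 and Dnajb11 (6.90% of members, 0.0444% of 27025 genes). The XBP1 core ACGTGG was found in 10 members (34.5%, against 9.40% of genes), and in Herpud1 it overlapped the ERSE-II match. The ATF4 site, searched as TGATG, any base, AA, was found in Herpud1 alone (3.45% of members and 4.51% of genes). These matches are letters in a window, not measured binding, and the elements were defined partly on these very genes.

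The Hspa5 promoter is shown because Hspa5 carried the largest response below. It lies directly before the RefSeq start on the plus strand of chromosome 2 (chr2:34771840-34772089), with the ERSE in capitals, 65 to 47 bases before the start.
Hspa5: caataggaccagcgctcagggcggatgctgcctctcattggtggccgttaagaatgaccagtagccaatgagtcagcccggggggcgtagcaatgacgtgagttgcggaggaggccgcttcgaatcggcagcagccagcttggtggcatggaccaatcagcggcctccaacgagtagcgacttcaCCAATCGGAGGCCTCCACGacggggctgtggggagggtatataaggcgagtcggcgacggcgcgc

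The same element, in capitals with 12 flanking bases on each side and read along the strand of the gene, is shown for Hsp90b1, Calr and Dnajc3, holders of it that are followed library by library below and did not rise in CK666. Canx, Pdia6, Creld2 and Syvn1 also hold it and did not pass in CK666, and are not printed. Hsp90b1 has it in each orientation (chr10:86705626-86705668 and chr10:86705521-86705563), Calr in the reverse orientation (chr8:84847063-84847105) and Dnajc3 in the forward one (chr14:118937815-118937857). Herpud1, which rose in CK666, has ERSE-II (chr8:94386365-94386399).
Hsp90b1, forward: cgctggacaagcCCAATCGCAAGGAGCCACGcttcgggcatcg
Hsp90b1, reverse: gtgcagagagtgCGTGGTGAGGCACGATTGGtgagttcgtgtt
Calr: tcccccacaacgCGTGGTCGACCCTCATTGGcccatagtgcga
Dnajc3: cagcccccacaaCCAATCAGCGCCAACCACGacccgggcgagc
Herpud1: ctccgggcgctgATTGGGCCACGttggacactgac

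Levels of different members were compared per length, as CPM per kb of merged exons (mean ± SD, n = 3). In control cells the most abundant were the disulfide isomerase P4hb (373 to 406 over the libraries), the lectin chaperone Calr at 382 ± 5.48, the isomerase Pdia3 at 376 ± 12.6 and the ER chaperone Hsp90b1 at 371 ± 5.35, and each of these overlapped its neighbour in the order. Hspa5 came next at 251 ± 15.7, apart from both neighbours, and Ssr3, a subunit of the translocon-associated protein complex, followed at 122 ± 3.08. The sensors stood low, Atf6 at 12.8 ± 0.778, Eif2ak3 at 5.99 ± 0.638 and Ern1 at 3.18 ± 0.413. In CK666 Hspa5 was first at 668 ± 75.2, ahead of Hsp90b1 at 363 ± 16.9, and their libraries did not overlap. With the longest transcript as the length, Calr led in control (504) and Hspa5 again in CK666 (770). Derl3, an ERAD gene, had at most 12.1 normalized counts in any library and is given no fold change.

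**Figure D1:**
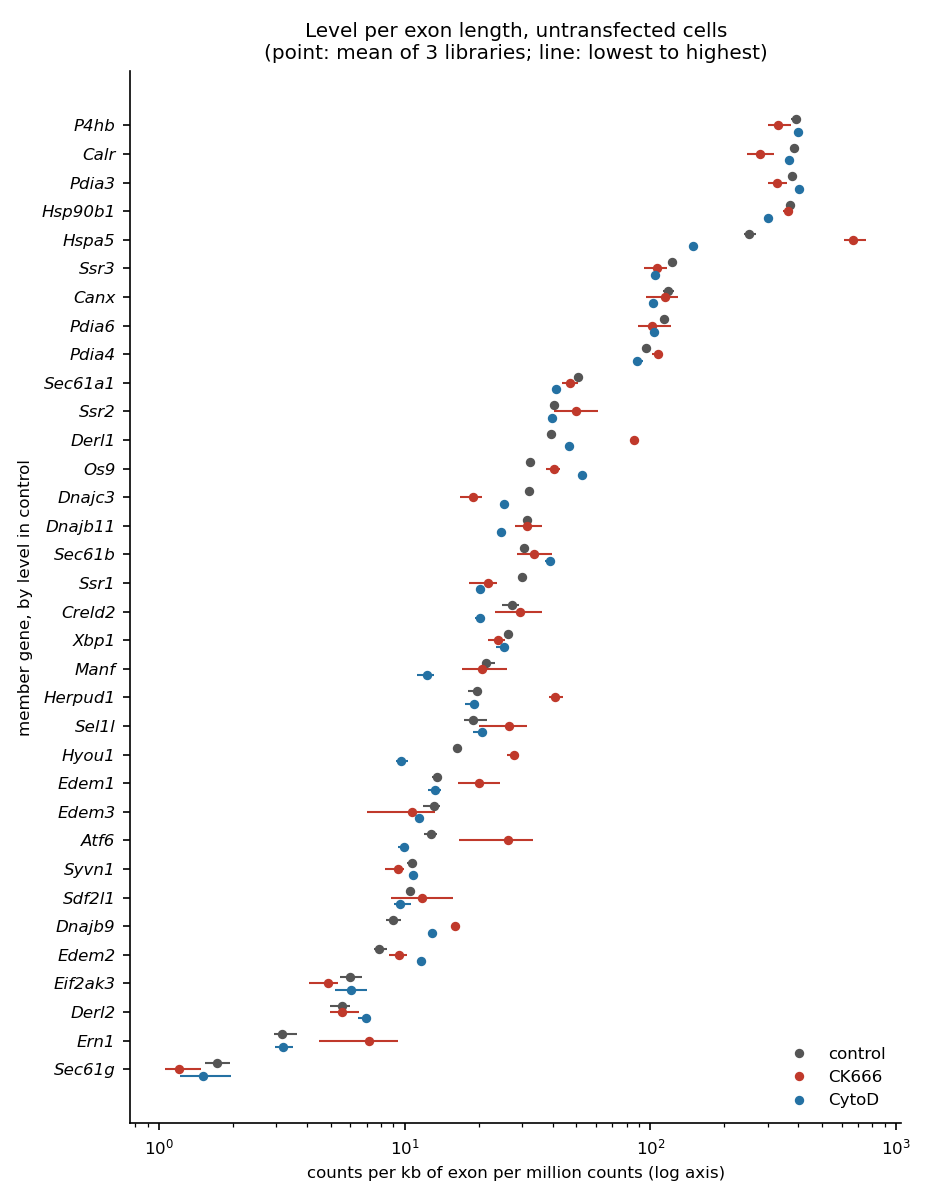
Level of each member in CPM per kb of merged exon length (log axis) in untransfected cells, in the order of the control level, as the mean of 3 libraries (point) with the lowest and highest library (line); Derl3 is left out. Hspa5 stood at 251 in control, at 668 in CK666, where it led, and at 149 in CytoD.

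The first question was what blocking actin branching does to this set. In CK666, Hspa5 rose 2.60-fold, and Derl1, Herpud1, Ern1, Atf6, Dnajb9, Hyou1 and Edem1 rose 1.43-fold to 2.18-fold, while Dnajc3, Ssr1 and Calr fell. None of the 4 disulfide isomerases passed the test, nor did Hsp90b1 or Xbp1. With the length trend removed, the isomerases Pdia3 (-0.28, adjusted p 0.0012) and P4hb (-0.33, adjusted p 0.000223) passed as lower, Ssr3 (-0.24, adjusted p 0.00522) likewise, and Os9 (0.23, adjusted p 0.00428) and Sel1l (0.53, adjusted p 5.02e-07) as higher. At an adjusted p below 0.01, 8 of 34 tested members were higher, where 15.3% of all 14597 tested genes were, and 3 were lower, against 14.7%. With the fold change minimum of the study added (absolute log2 over 1), 4 members were called, all higher, against 11.0% of genes in both directions. The median log2 fold change of the members was -0.04, beside 0.01 for all tested genes.

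Hspa5 (chromosome 2, 34771970 to 34777547, plus strand) encodes BiP, the main ER chaperone and the brake on the sensors. It stood at 23559.6, 21148 and 20944 normalized counts in control and at 66663, 51195 and 52959 in CK666, a log2 fold change of 1.38 (95% interval 1.14 to 1.62, adjusted p 1.17e-28). The groups did not overlap: the lowest CK666 library stood at 51195 and the highest control library at 23559.6. Hyou1, a nucleotide exchange partner of BiP, had 2427, 2533 and 2369.9 in control and 3949, 4153 and 3987 in CK666 (log2 0.72, SE 0.09, adjusted p 5.68e-15). Dnajb9, an ER J-protein co-chaperone of BiP, had 509, 463 and 442 in control and 848, 838 and 787 in CK666 (log2 0.81, SE 0.11, adjusted p 3.63e-12). These are the 3 chaperones that rose, and every CK666 library was above every control library for each. That is likely for genes picked by a test on the same libraries.

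Other chaperones did not rise. Hsp90b1, the ER paralogue of HSP90, had 30713, 31183 and 30666 in control and 32098, 27605 and 28587 in CK666, and its log2 fold change of -0.07 had an interval of -0.23 to 0.09 (adjusted p 0.555). Calr, which holds glycoproteins through their sugars, had 22873, 22875 and 22389.6 in control and 19114, 14078 and 15235 in CK666 (log2 -0.49, SE 0.12, adjusted p 0.000193), and without CK666 replicate 3 its adjusted p was 0.0112. Dnajc3, which encodes an ER co-chaperone also known as P58IPK, had 3400.1, 3297 and 3476 in control and 1804, 2099 and 1983 in CK666 (log2 -0.79, SE 0.09, adjusted p 2.57e-17). Canx, Dnajb11, Sdf2l1, Manf and Creld2 lay between -0.09 and 0.13 on the log2 scale and did not pass the test. Of the ERSE holders, 1 was higher (Hspa5) and 2 lower (Calr and Dnajc3) among 8 tested, beside 15.3% and 14.7% of all tested genes, and nothing is read from these counts.

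The sensors split. Atf6 (chromosome 1, 170704674 to 170867771, minus strand) had 2287, 2443 and 2573 in control and 3222, 6039 and 5212 in CK666 (log2 0.99, SE 0.19, adjusted p 2.78e-06). Ern1 (chromosome 11, 106394650 to 106487852, minus strand) had 499, 614 and 498 in control and 767, 1512 and 1239 in CK666 (log2 1.13, SE 0.22, adjusted p 3.05e-06). For both, CK666 replicate 1, the library that favoured short genes, was the lowest of its group but still above every control. With the length trend removed, their log2 fold changes were 1.08 for Atf6 and 1.21 for Ern1. Eif2ak3 had 683, 829 and 724 in control and 513, 624 and 635 in CK666 (log2 -0.34, interval -0.64 to -0.03, adjusted p 0.0713). Xbp1 had 1779.8, 1703 and 1828 in control and 1672, 1636 and 1389 in CK666 (log2 -0.18, interval -0.39 to 0.03, adjusted p 0.185). Neither passed the test, although the libraries of the groups did not overlap for either gene.

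Among ERAD genes, 3 of 9 tested rose and none fell, beside 15.3% and 14.7% of all tested genes. No direction of the role is read from so few genes. Derl1, part of the channel through which misfolded proteins leave the ER, had 2676, 2710.0 and 2767 in control and 5916, 5794 and 5473 in CK666 (log2 1.08, SE 0.08, adjusted p 3.3e-39), the change with the smallest adjusted p of the set. Herpud1, which organizes the ubiquitin ligase complex of ERAD, had 986, 979 and 872 in control and 2144, 1847 and 1766 in CK666 (log2 1.02, SE 0.12, adjusted p 7.8e-17). Both groups were tight and wide apart. Edem1, a lectin that marks glycoproteins for degradation, rose by 0.52 (SE 0.14, adjusted p 0.000689), though not without control replicate 1, nor when all 18 libraries were fitted together (adjusted p 0.152). Sel1l, the partner of the ligase Syvn1, was at 0.43 with an adjusted p of 0.016. With the replicate number as a block over the 9 libraries, Sel1l passed (adjusted p 0.00605) while every other call of this comparison stayed. Same-numbered control and CK666 libraries deviated together, but those of CytoD, which share that fit, did not. With the block and only control and CK666 fitted, Sel1l did not pass. Of the 6 translocation genes, only Ssr1 passed, falling by 0.50 (SE 0.10, adjusted p 5.49e-06), and Ssr3 joined it with the length trend removed (above).

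**Figure D2:**
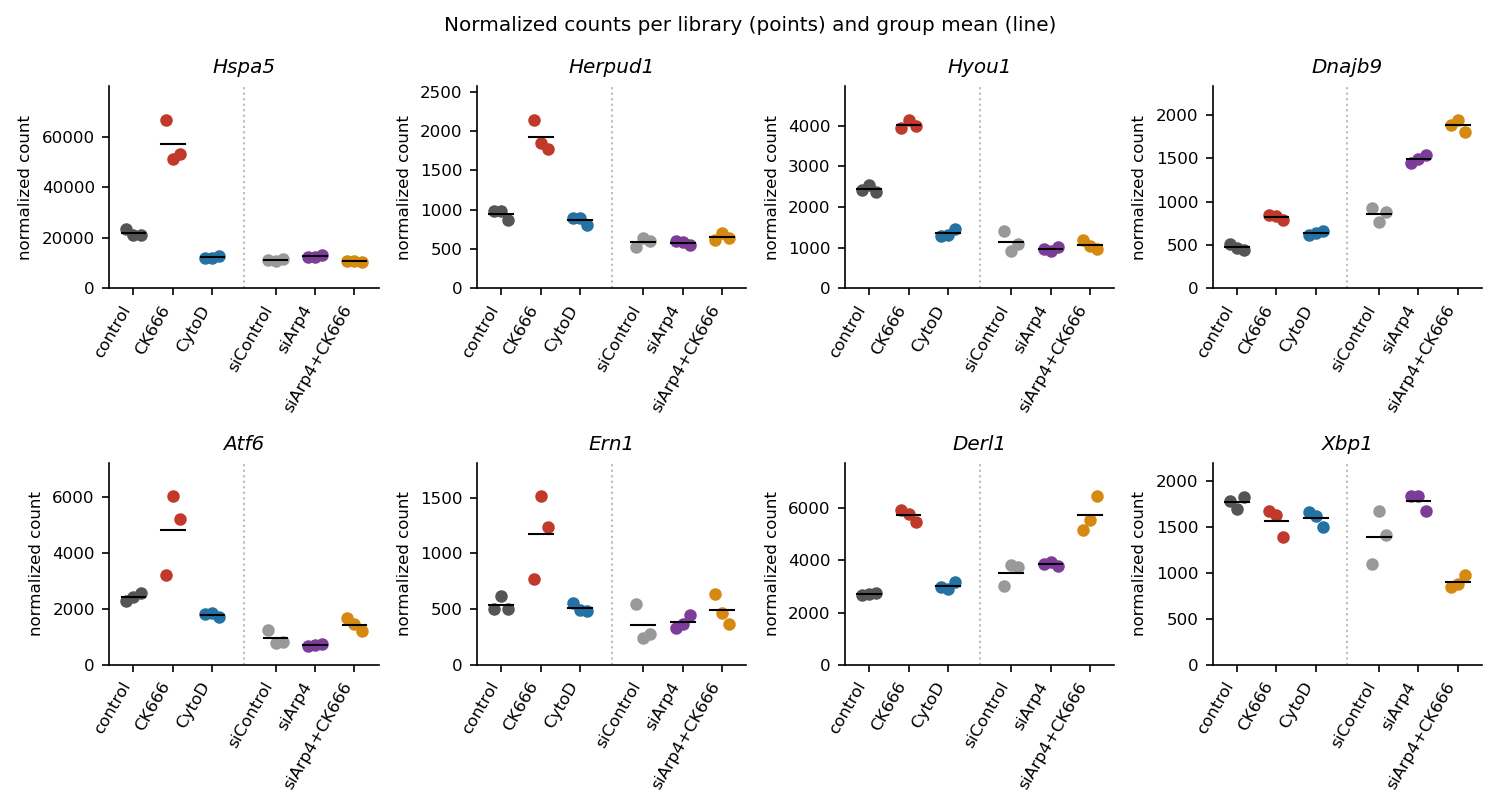
Normalized counts of 8 members in each library (points; left to right, replicates 1 to 3) with the group mean (line); the dotted line parts the first and second experiment, whose counts were scaled separately. Hspa5 in CK666 (51195 to 66663) stands above all other groups, and Atf6 and Derl1 are above control in CK666, and above siArp4 in siArp4+CK666.

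Of the 9 tested MSC markers, 7 were lower in CK666, and all 4 tested adipocyte markers were higher, their summed level going from 44.5 to 45.3 CPM in control to 86.9 to 123 CPM. Their part in the changes of the ER genes was not tested. Without CK666 replicate 1, 17 members were called.

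**Figure D3:**
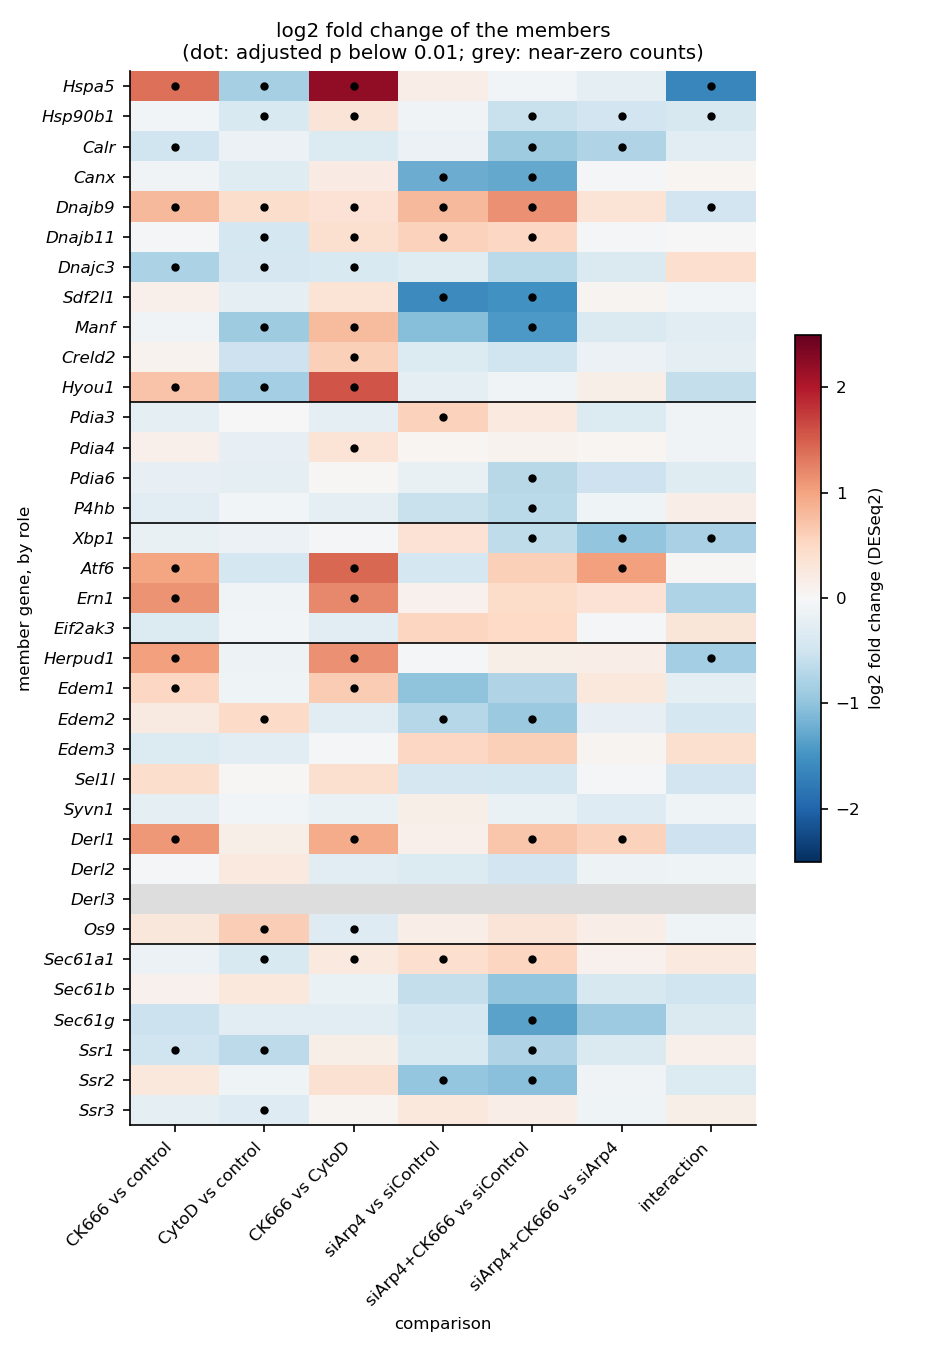
log2 fold change (colour) of the members in 6 comparisons and in the interaction, the CK666 effect in knockdown cells minus that in untransfected cells; horizontal lines part the roles, dots mark an adjusted p below 0.01, and Derl3 is grey because its counts were near 0. Hspa5 is red in CK666 vs control (1.38), blue in CytoD vs control (-0.84) and most strongly blue in the interaction (-1.63).

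In CytoD, which also acts on actin, Hspa5 and Hyou1 fell, while Dnajb9 rose and Dnajc3 fell as they had in CK666. Manf, Hyou1 and Hspa5 fell to 0.542, 0.553 and 0.560 of control, and Ssr1, Dnajb11, Dnajc3, Hsp90b1, Sec61a1 and Ssr3 fell by less. Os9, Edem2 and Dnajb9 rose 1.53-fold, 1.39-fold and 1.36-fold. The calls of Manf, Dnajb11, Dnajc3, Ssr3, Edem2 and Dnajb9 were lost in some alternatives (below). In all 9 of 34 tested members were lower, where 16.0% of 13717 tested genes were, and 3 were higher, against 13.6%. None passed the fold change minimum of the study, which 9.12% of genes did. The median of the members was -0.18, beside 0.01 for all tested genes. The control libraries are the same as for CK666, so the changes in each are not independent of the other.

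Hspa5 was at 11828, 12125 and 12802 in CytoD, all below the lowest control library (log2 -0.84, SE 0.12, adjusted p 5.99e-11). Manf, a secreted ER protein that protects against stress, went from 1507, 1492 and 1693 in control to 861, 771 and 913 (log2 -0.88, SE 0.18, adjusted p 5.84e-06). Manf shares exon sequence with Dcaf1 on the opposite strand and Rbm15b on the same one, and the libraries were unstranded, so its counts are uncertain. Os9, a lectin of ERAD, went from 1754, 1810.3 and 1718 to 2628, 2639.7 and 2791 (log2 0.61, SE 0.10, adjusted p 1.16e-08), the largest rise of the set in CytoD. Hyou1 fell to 1290.2, 1299 and 1468, with no overlap. Hsp90b1 fell by 0.39 (SE 0.08, adjusted p 1.75e-05) to 23202, 23367 and 24119. Calr had 20644, 19988 and 20732, Xbp1 1664, 1624 and 1504, Ern1 555, 487 and 479, and Eif2ak3 681, 821 and 621, and none of these passed the test.

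By role, 6 of 11 chaperones and 3 of 6 translocation genes were lower in CytoD, where 16.0% of all tested genes were, and none of the 4 isomerases or 4 sensors was called. With the length trend removed, Pdia4 (-0.31, adjusted p 5.06e-05), Canx (-0.30, adjusted p 0.00223) and Creld2 (-0.69, adjusted p 2.25e-07) passed as lower. Atf6, at 1802, 1837 and 1714, lay below every control library (log2 -0.45, adjusted p 0.0541), and with the length trend removed it passed (-0.40, adjusted p 0.00533). Dnajb11 and Ssr3 lost their call whenever any control or CytoD library was left out. Edem2 lost its call without control replicate 1 or 3 or CytoD replicate 2 or 3, and Dnajb9 without replicate 3 of either group. With all 18 libraries fitted, Dnajc3 (adjusted p 0.11), Manf (adjusted p 0.021) and Ssr3 were not called. Of the markers, 2 of 9 MSC genes were lower and 2 higher, and all 4 tested adipocyte genes were higher in CytoD (116.9 to 133.5 CPM summed). Also higher were 2 of 4 tested hematopoietic, 1 of 3 osteoblast and 1 of 2 plasma and B cell markers, with none lower. Hematopoietic markers summed to 18.1 to 19.6 CPM in CytoD and 10.9 to 13.9 in control. The part of all these markers was not tested. With only control and CytoD fitted, 20 members were called, and without CK666 replicate 1, whose group shares the fit, 19.

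Setting CK666 directly against CytoD, 14 members were higher in CK666, where 16.9% of 15038 tested genes were, and 2 were lower (Dnajc3 and Os9), against 14.9%. By the rule of the study 5 were called, all higher, against 11.8% of genes. They were Hspa5 (4.65-fold, log2 2.22, SE 0.12), Hyou1 (2.98-fold), Atf6 (2.70-fold), Ern1 (2.31-fold) and Herpud1 (2.21-fold). Hspa5 libraries in CK666 thus started at 51195 while those in CytoD ended at 12802. Dnajc3 was 1804 to 2099 in CK666 and 2482 to 2621 in CytoD (log2 -0.37, SE 0.09, adjusted p 0.000161). It was not called with all 18 libraries fitted (adjusted p 0.123), and Os9 lost its call in 11 of 17 alternatives. Of the higher members, Sec61a1, Dnajb11, Dnajb9 and Creld2 lost theirs in 11, 9, 7 and 6. The median of the members was 0.23, and -0.03 over all tested genes. With the length trend removed Calr (-0.31) passed as lower and Sel1l (0.45) and Ssr2 (0.42) as higher. With only these groups fitted 9 members were called, and 9 or 10 without any one CytoD library, but 25 without CK666 replicate 1. Of 9 MSC markers 6 were lower and 2 higher in CK666 than in CytoD, and their part was not tested.

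All members together took 0.997% ± 0.0135 of the counts of a library in control, 1.14% ± 0.0447 in CK666 and 0.888% ± 0.00644 in CytoD (SD, n = 3). Hspa5 alone took 0.106% in control, 0.283% in CK666 and 0.0630% in CytoD. Without Hspa5 the shares were 0.891%, 0.854% and 0.825%, so the other 34 members together took no larger share in CK666 than in control. In the second experiment the set took 0.802% ± 0.0746 in siControl, 0.770% ± 0.0167 in siArp4 and 0.661% ± 0.0137 in siArp4+CK666.

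**Figure D4:**
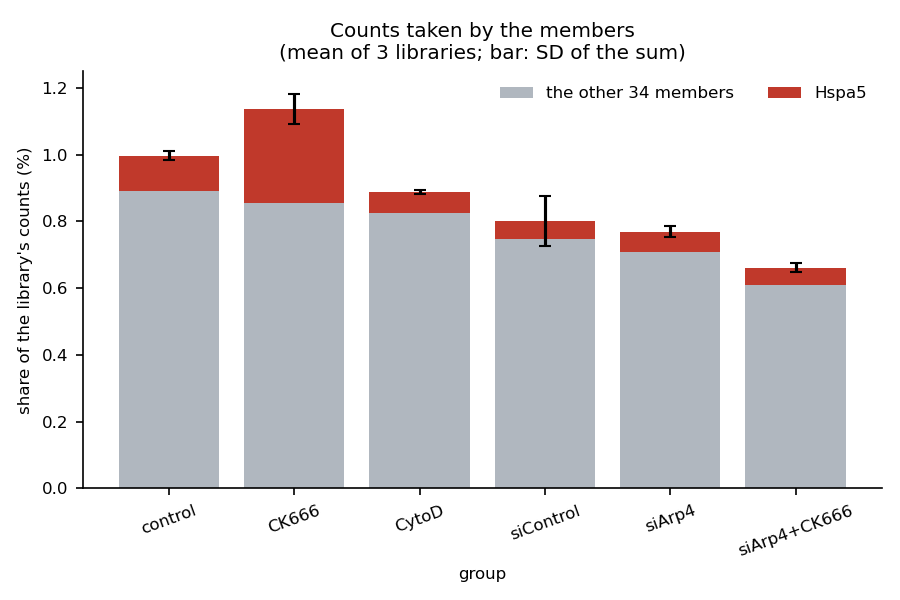
Share of the counts of a library taken by Hspa5 (red) and by the other 34 members (grey), in percent, as the mean of 3 libraries; error bars are the SD of the sum. The total was highest in CK666 (1.14%), where Hspa5 took 0.283%, and lowest in siArp4+CK666 (0.661%).

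The second experiment asked how the same set stood after Arp4 knockdown. In siArp4, Canx and Sdf2l1 fell to 0.424 and 0.333 of siControl, and Edem2 and Ssr2 to 0.613 and 0.512. Edem2 lost its call without siControl replicate 3 or without any one siArp4 library. Dnajb9 rose 1.75-fold, Dnajb11 1.49-fold and Sec61a1 1.34-fold, and Pdia3 rose by a log2 of 0.58 (SE 0.14), its adjusted p being 0.000192, or 0.0117 with edgeR. So 4 of 35 members were higher, where 11.9% of 15415 tested genes were, and 4 lower, against 13.1%, and 2 passed the rule of the study, against 16.2% of genes. The median of the members was -0.15, beside -0.05 for all tested genes. Hspa5 was at 11222, 10646 and 11462 in siControl and at 12144, 12239 and 13249 in siArp4 (log2 0.17, interval -0.03 to 0.38, adjusted p 0.181).

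Canx, the membrane-bound sister of calreticulin, went from 11863, 7140.2 and 8674 in siControl to 3493, 3888 and 4345 in siArp4 (log2 -1.24, SE 0.24, adjusted p 2.2e-06). It kept its call in each alternative. Sdf2l1, which works with BiP and ER J-proteins, went from 448, 1285 and 715 to 285, 298 and 232 (log2 -1.59, SE 0.40, adjusted p 0.000429), and with edgeR its adjusted p was 0.0134. In siControl Sdf2l1 was highest in replicate 2, the library that favoured short genes, and with the length trend removed it stood at -1.43 (adjusted p 3.71e-09). Dnajb9 went from 923, 759.5 and 878 to 1442, 1496 and 1539.9 (log2 0.80, SE 0.13, adjusted p 1.35e-08) and also kept its call in each alternative. All 3 genes showed no overlap between siControl and siArp4, as is likely for genes picked by a test on the same libraries.

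Ssr2 went from 1659, 3361 and 2389 to 1351, 1287 and 1157 (log2 -0.96, SE 0.28, adjusted p 0.00249), but its transcript shares 98.6% identity over 366 bases with Rtraf, so its counts are uncertain, and edgeR gave 0.0171. Sec61a1, the channel pore, kept its call in few alternatives and lost it with the replicate block (adjusted p 0.0148). Xbp1 had 1093, 1681 and 1413 in siControl and 1838, 1835 and 1678 in siArp4, and Atf6 1261, 767 and 820.0 against 679.6, 698 and 736, and neither passed. With the length trend removed Atf6 (-0.49, adjusted p 0.000278) and Sel1l (-0.47, adjusted p 0.00317) passed as lower. The mitochondrial share was also higher in every siArp4 library than in siControl, and its part was not tested. Ern1, at 546, 241 and 276 against 328, 368 and 449.9, overlapped, as did Calr, at 18059, 25501 and 23074 against 19705, 20584 and 19715, and Hsp90b1, at 17671, 18681 and 17201 against 16641, 16213 and 17463. Eif2ak3 had 811, 494 and 558 in siControl and 839, 858 and 1002 in siArp4 (log2 0.53, adjusted p 0.0992). By edgeR 4 members were called and 1 by the rule of the study, and without siControl replicate 1 the counts were 13 and 6. Among the markers, 2 of 9 MSC genes were higher and 1 lower in siArp4, and 3 of 4 adipocyte genes were lower, and their part was not tested.

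With Arp4 knocked down and CK666 added, calls against siControl were mostly lower. Of 35 members, 12 were lower, where 15.8% of 15415 tested genes were, and 4 were higher, against 14.0%. By the rule of the study 6 were called, against 20.4% of genes, Dnajb9 higher and Sdf2l1, Manf, Sec61g, Canx and Ssr2 lower. Dnajb9 reached 1886, 1947 and 1809 (2.20-fold, log2 1.14, SE 0.13, adjusted p 8.71e-17). Manf went from 961, 2935 and 1627 to 552, 644 and 843 (log2 -1.44, SE 0.38, adjusted p 0.000671), but its log2 fold change was -0.93 without siControl replicate 2 and it lost its call without siArp4+CK666 replicate 1. Sdf2l1 was at 186, 291 and 375 (log2 -1.52, adjusted p 0.000635) and Canx at 4389, 3925 and 3132 (log2 -1.27, adjusted p 7.85e-07). Ssr2 was at 1012, 1134 and 1439.5 (log2 -1.05, adjusted p 0.000757). For each of these 4 lower genes every siArp4+CK666 library lay below the lowest siControl library. That too is likely for genes picked by a test on the same libraries.

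Sec61g, a small subunit of the channel, went from 327, 1015 and 572 to 204, 206 and 348, so its groups overlapped (log2 -1.33, SE 0.40, adjusted p 0.00358). Without siControl replicate 2 it stood at -0.83 and was not called, nor was it without siControl replicate 3 or siArp4+CK666 replicate 1 or 2. Sec61g shares 99.1% identity over 424 bases with Gm10177, whose mean count was 2365 against 259 for Sec61g, so the split between them is uncertain. The median of the members was -0.45, beside -0.05 for all tested genes, and -0.18 with the length trend removed, when P4hb (-0.43, adjusted p 0.0215) and Xbp1 (-0.43, adjusted p 0.0136) lost their calls. Under that setting Sel1l (-0.56) passed as lower and Pdia3 (0.44), Herpud1 (0.40), Atf6 (0.47) and Os9 (0.57) as higher. Over all alternatives P4hb lost its call in 12 of 17 and Xbp1 in 11 of 17. The mitochondrial share of counts was higher in every siArp4+CK666 library than in siControl, and its part was not tested. By edgeR 10 members were called, with adjusted p values of 0.0132 for Manf and 0.0133 for Sdf2l1, and by the rule of the study 2, Dnajb9 and Canx. Without siControl replicate 1 the counts were 24 and 10, and without siControl replicate 2 or siArp4+CK666 replicate 1 the rule of the study gave 3. Of the 9 MSC markers 5 were lower, and their part was not tested.

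CK666 in knockdown cells was then read against siArp4 alone. Atf6 and Derl1 rose, and Xbp1, Calr and Hsp90b1 fell. That made 2 of 34 tested members higher, where 3.82% of 14098 tested genes were, and 3 lower, against 6.07%. Only Atf6 passed the rule of the study, against 5.75% of genes. Atf6 went from 679.6, 698 and 736 to 1669, 1445 and 1196 (2.04-fold, log2 1.03, SE 0.24, adjusted p 0.000337). Derl1 went from 3867, 3940.3 and 3776 to 5162, 5557 and 6464 (1.48-fold, log2 0.57, SE 0.16, adjusted p 0.00434). Xbp1 went from 1838, 1835 and 1678 to 852, 880.4 and 976, 0.506 of siArp4 (log2 -0.98, SE 0.19, adjusted p 9.03e-06). Calr went to 10560.1, 11741 and 13506 (log2 -0.74, SE 0.18, adjusted p 0.000596) and Hsp90b1 to 12563, 11970.0 and 11819 (log2 -0.47, SE 0.10, adjusted p 5.67e-05). The groups did not overlap for any of the 5 genes, which adds no support because the genes were picked by a test on the same libraries.

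Hspa5 did not rise with CK666 in these cells. It was at 10662, 10913 and 10245 in siArp4+CK666, all below the siArp4 libraries, with a log2 fold change of -0.24 whose interval was -0.44 to -0.04 (adjusted p 0.101). Herpud1, at 601, 592 and 544 in siArp4 and 613, 697 and 638 with CK666, had 0.17 (interval -0.13 to 0.46). Hyou1, at 968, 923 and 1024 and at 1197, 1041 and 969.5, had 0.14 (interval -0.26 to 0.53). Ern1 was at 638, 465 and 369 and Eif2ak3 at 1070.1, 889 and 676, both overlapping siArp4. With edgeR only Xbp1 kept its call (adjusted p 0.00672), while Atf6 had 0.017, and 8 members were called when only these groups or all 18 libraries were fitted. Leaving out any single library of either group gave 1 to 3 calls, and Xbp1 was among the calls each time. Against siArp4, 4 of 9 MSC markers were lower and all 3 tested adipocyte markers higher, and their part was not tested.

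The difference between the CK666 effects was tested directly, as the effect in knockdown cells minus the effect in untransfected cells over all 18 libraries. No member was higher, where 3.76% of 13511 tested genes were, and 5 of 34 were lower, against 4.06%. Hspa5 was the only member called by the rule of the study, against 4.42% of genes, with a difference of -1.63 (interval -1.90 to -1.35, adjusted p 1.13e-28; 6.15e-06 with edgeR). Herpud1 differed by -0.86 (SE 0.16, adjusted p 6.45e-06; 0.00269 with edgeR). These calls held in each alternative. The other 3 were Xbp1 (-0.81, SE 0.21, adjusted p 0.00184), Dnajb9 (-0.48, SE 0.12, adjusted p 0.00162) and Hsp90b1 (-0.41, SE 0.10, adjusted p 0.000575), and edgeR gave 0.0139, 0.0413 and 0.0361. Dnajb9 was also lost with the length trend removed (adjusted p 0.299) and with the replicate block (0.0126). Hyou1, at -0.59 with an adjusted p of 0.0149, passed with the length trend removed (-0.71, adjusted p 1.29e-07) and with the block (0.00796), and Sel1l passed with the length trend removed (-0.62, adjusted p 0.00089).

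For Atf6 the effects of CK666 in the 2 settings differed by 0.03, with an interval of -0.57 to 0.64 (adjusted p 0.965). For Derl1 the difference was -0.51 (interval -0.83 to -0.19, adjusted p 0.0173), and for Ern1 -0.77 (interval -1.61 to 0.06, adjusted p 0.249). The contrast sets transfected knockdown cells beside untransfected cells, so Arp4 loss, transfection and any batch cannot be told apart in it. Before CK666, Hspa5 took 0.106% ± 0.00663 of counts in control, 0.0604% ± 0.00358 in siArp4 and 0.0532% ± 0.0102 in siControl. Without control replicate 2 only 3 members were called, Xbp1 and Dnajb9 being lost. Xbp1 was also lost without CK666 replicate 1, siArp4 replicate 1 or 2, or siArp4+CK666 replicate 1, and Dnajb9 without control replicate 3 or siArp4 replicate 3.

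**Figure D5:**
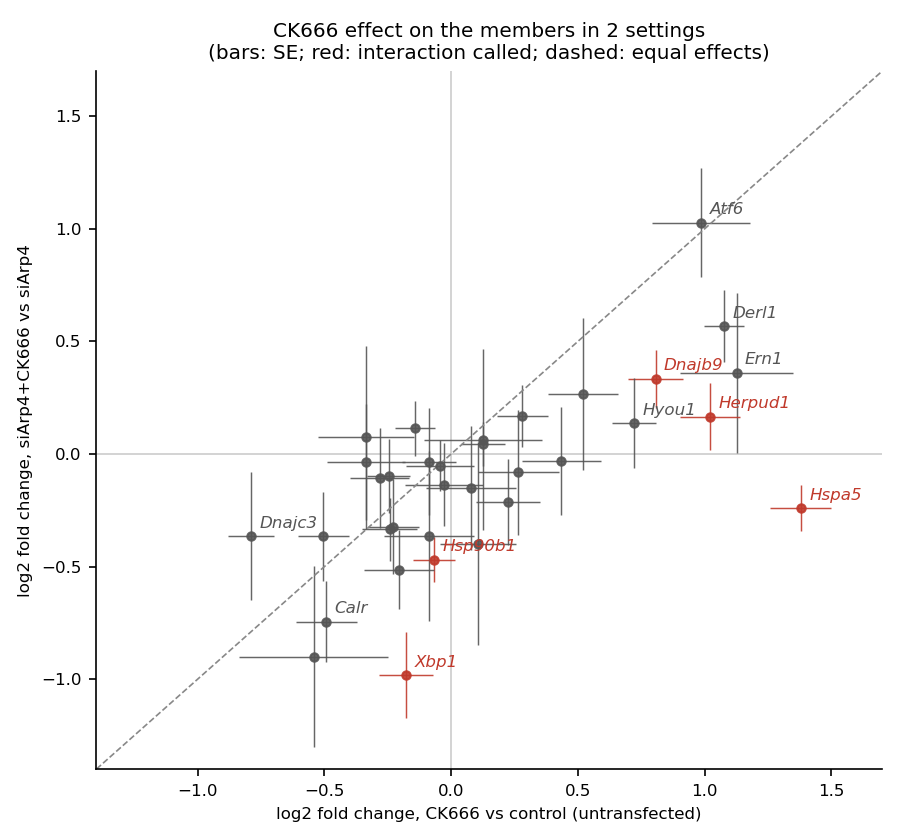
log2 fold change of 34 members (Derl3 left out) with CK666 in untransfected cells (horizontal axis) against that with CK666 after Arp4 knockdown (vertical axis), each with its SE; the dashed line marks equal effects and red marks members whose effects differed at an adjusted p below 0.01. Hspa5 lies at 1.38 and -0.24, far under the line, while Atf6 lies on it at 0.99 and 1.03.

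Over the 18 libraries, the members whose log2 level was most like that of Hspa5 were Hyou1 (Pearson r 0.943), Herpud1 (0.935), Pdia4 (0.888) and Atf6 (0.803), and the least like was Os9 (-0.686). The 5 genes outside the set with the highest r, among 10318 genes with a mean count of at least 100, were Cth, which encodes cystathionine gamma-lyase (0.950), Recql4, a DNA helicase gene (0.950), Tbc1d31 (0.948), Faf1 (0.943) and Vdac3, which encodes a mitochondrial outer membrane channel (0.943). The libraries fall into 6 groups of 3, so these values describe likeness across conditions and carry no p.

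Neighbouring pathways were read from lists of other genes. Over all tested genes, the shares called higher and lower were 15.3% and 14.7% in CK666, and 13.6% and 16.0% in CytoD. They were 3.82% and 6.07% in siArp4+CK666 against siArp4, and 3.76% and 4.06% in the interaction. Nothing is read from counts near these shares. The 24 tested genes of the ATF4 and CHOP list included 23 that rose in CK666 and none that fell, with a median of 1.35, whereas the ER set had 8 of 34 with a median of -0.04. Trib3, a pseudokinase gene and target of CHOP, rose by 4.66 and Ddit3 by 4.32 on the log2 scale. In CytoD 15 of the 24 fell and 2 rose, with the amino acid transporter Slc7a5 at -2.77 and Mthfd2, a mitochondrial folate enzyme, at -2.47. In siArp4+CK666 against siArp4, 12 rose and 1, Nupr1, fell, Atf3 by 3.51 and Slc7a11 by 2.97. In that comparison Hspa5 and Herpud1 did not pass the test (above). In the interaction 8 of the 24 were lower, Ppp1r15a at -3.31 and Nupr1 at -3.17, and 1, Atf5, was higher.

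Other ER folding genes outside the set gave 10 of 34 higher and 5 lower in CK666. Over all tested genes 15.3% were higher and 14.7% lower. Ero1l, the oxidase that feeds the disulfide isomerases, rose by 2.36 (adjusted p 1.86e-103) and Ero1lb by 1.14, while Fkbp14 fell by 0.98 and Cnpy4 by 0.92. The CK666 effect on Ero1l was also lower after knockdown (interaction -1.68, adjusted p 1.08e-08). Other ERAD genes gave 8 of 31 higher and 1 lower in CK666, with Nfe2l1, a transcription factor of proteasome genes, at 1.45 and Herpud2 at 0.99, and Vcp, the ATPase that pulls proteins from the membrane, at -0.44. In the interaction Nfe2l1 and Erlin1, an ER membrane scaffold of ERAD, stood at -1.07 and -1.11.

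Other translocation, signal peptidase and oligosaccharyltransferase genes gave 2 of 37 higher and 4 lower in CK666, and 1 higher and 11 lower in CytoD. Over all tested genes 15.3% were higher and 14.7% lower in CK666, and 13.6% and 16.0% in CytoD. Spcs3, a signal peptidase subunit, fell by 1.10 and 1.40. Genes for vesicle transport out of the ER gave 2 of 28 higher and 9 lower in CK666 and 3 higher and 9 lower in CytoD, and Wfs1, which encodes an ER membrane protein, rose by 1.46 in CK666 and stood at -1.63 in the interaction (adjusted p 2.1e-12). Collagen folding and modifying enzymes gave 4 of 19 higher and 7 lower in CK666 and 3 higher and 8 lower in CytoD, with P4ha1, a collagen prolyl hydroxylase that works with P4hb, at -0.89 and -0.67. Among 20 other sensors, transducers and proteases, 3 were higher and 3 lower in CK666, and Creb3l1, an ATF6-like factor of collagen-secreting cells, fell by 1.40 there and by 0.98 in CytoD but rose by 1.60 in siArp4.

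For the same lists after knockdown, 11.9% of all tested genes were higher and 13.1% lower in siArp4 against siControl. With CK666 added to siArp4 the shares were 3.82% and 6.07%, and in the interaction 3.76% and 4.06%. Nothing is read from counts near these shares. In siArp4 against siControl, 4 of 35 other folding genes were higher and 8 lower, among them Tmx1, a membrane-bound oxidoreductase, at -2.37. Other ERAD genes gave 6 of 31 higher and 4 lower, with the ubiquitin-conjugating enzyme Ube2j1 at -2.41, and vesicle transport genes 7 of 28 higher and 1 lower. With CK666 added to siArp4, collagen folding and modifying enzymes gave 1 of 19 higher and 7 lower, the other folding genes 1 higher and 4 lower and the other translocation genes none higher and 4 lower. In the interaction other ERAD genes gave 1 higher and 6 lower of 31, and each remaining list outside ATF4 and CHOP had at most 2 calls.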

How the data were processed

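RNA-seq of 18 libraries was used, in 6 groups of 3 taken from the sample labels. Per the labels and the methods of the study, the authors quantified unstranded paired-end reads with Salmon 1.2.1 against the GRCm38 mouse transcriptome and deposited estimated counts per gene. The step from transcripts to genes is not given in the sources used here. Estimated counts were rounded. DESeq2 1.42.0 (R 4.3.3; Wald test, no prefilter, Benjamini-Hochberg adjustment over all genes) was fitted to the 9 libraries of each experiment, and to all 18 for the interaction. Calls needed an adjusted p below 0.01, and by the rule of the study also an absolute log2 fold change over 1. Totals of 18075610 to 24733212 counts set the precision, and p-values measure only the spread between preparations.

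Alternatives were edgeR 4.0.16 (quasi-likelihood), TMM scaling, a low-count filter, other sample sets, a replicate block, each library left out and, added after the data were seen, removal of the trend with gene length. Same-numbered control and CK666 libraries deviated together (correlations 0.29, 0.23 and 0.17), and those of CytoD did not. The labels state no pairing, so the replicate block is an alternative only. The fits were tested on simulated counts. Exon lengths and overlaps came from a GENCODE annotation of GRCm38, and near-identical copies from blastn 2.17.0.

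The members, the lists and the tests were chosen with earlier results of these data known. Values of every library are given for 7 members chosen by name, for members called by the rule of the study against their control or in the interaction, and for the largest rise and fall of each comparison. From other lists, up to 2 rises and 2 falls with a mean count of at least 100 could be named, and some were left out for length.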

Additional observations from a re-analysis of the deposited data

Results flagged for a closer look

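Results are listed here when the effect of CK666 differed between knockdown and untransfected cells by a test of the difference itself, the interaction over 18 libraries. For Hspa5 the difference was -1.63 on the log2 scale, from 1.38 in untransfected cells to -0.24 in knockdown cells. For Herpud1 it was -0.86, for Xbp1 -0.81, for Dnajb9 -0.48 and for Hsp90b1 -0.41. For Hspa5 the CK666 libraries lay above control and the siArp4+CK666 libraries below siArp4. For Herpud1 and Dnajb9 they lay above in both settings, and for Xbp1 below in both. For Hsp90b1 control and CK666 overlapped, and siArp4+CK666 lay below siArp4. The calls of Xbp1, Dnajb9 and Hsp90b1 were lost with edgeR, and those of Xbp1 and Dnajb9 also when single libraries were left out. Transfection, knockdown and any batch cannot be told apart in these values. Groups of 3 libraries were too small for a test of outlying libraries, though some stood apart from their group by gene length (above).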

How the results depend on the processing

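No named result changed sign where it was called. Results below are counts of members called at an adjusted p below 0.01 unless said otherwise, and the cause of each shift was not tested. With edgeR, siArp4 vs siControl gave 4 calls (1 by the rule of the study, median -0.18), siArp4+CK666 vs siControl 10 (2 by that rule), siArp4+CK666 vs siArp4 1 (0 by that rule) and the interaction 2. Fitting only the groups compared gave 20 for CytoD vs control, 9 for CK666 vs CytoD, 10 for siArp4+CK666 vs siControl and 8 for siArp4+CK666 vs siArp4, and all 18 libraries gave 8 for the last. At an adjusted p below 0.05 the rule of the study called 4 in siArp4 vs siControl. The median there was -0.17 with a low-count filter and -0.13 over 18 libraries. With the length trend removed, medians were -0.26 (CytoD vs control), 0.29 (CK666 vs CytoD), -0.044 (siArp4 vs siControl), -0.18 (siArp4+CK666 vs siControl) and -0.011 (siArp4+CK666 vs siArp4, with 0 calls by the rule of the study).

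With the replicate block, the median of siArp4 vs siControl was -0.14. Of all 18 same-numbered pairs, 6 correlated over 0.1 (range -0.58 to 0.74), and control with CK666 was the only pair of groups to do so for each number. The block added Sel1l in CK666 vs control (adjusted p 0.00605), but not when only control and CK666 were fitted. It dropped Dnajb9, Dnajb11, Os9 and Sec61a1 in CK666 vs CytoD. It swapped Sec61a1 for Edem1 in siArp4 vs siControl and P4hb for Derl2 in siArp4+CK666 vs siControl. In the interaction it swapped Dnajb9 for Hyou1.

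Leaving out 1 library gave 10 to 17 calls in CK666 vs control, 8 to 19 in CytoD vs control, 9 to 25 in CK666 vs CytoD (the highest each without CK666 replicate 1), 5 to 13 in siArp4 vs siControl (2 to 6 by the rule of the study, medians -0.17 to -0.043), 3 to 10 by that rule in siArp4+CK666 vs siControl (medians -0.45 to -0.24), 1 to 7 in siArp4+CK666 vs siArp4 (0 to 2 by that rule) and 3 to 7 in the interaction. Depth limits Derl3, which had at most 12.1 normalized counts.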
